A study of Mus musculus with 2 samples.

Results

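The Pi16 and Dpp4 positive fibroblasts of mouse gonadal white adipose tissue (gWAT) were described from single-cell RNA sequencing of the stromal vascular fraction (SVF), the cells left when fat tissue is digested and the floating adipocytes are removed. A cell was counted as a member when it had at least 500 detected genes, at most 10% mitochondrial UMIs, at least 10 UMIs of Dcn, at least 1 of Pdgfra, at least 2 of Pi16 and Dpp4 together, and none of Ptprc, Pecam1 or Msln. A UMI (unique molecular identifier) stands for 1 captured RNA molecule. The rule kept 268 of the 11252 barcodes, 221 in the control library and 47 in the KO library. The cells set beside them are the 698 fibroblasts that passed the same limits with 0 or 1 UMI of Pi16 and Dpp4 together, 569 of the control and 129 of the KO library, here called the other fibroblasts.

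Both libraries came from male C57BL/6 mice aged 13 weeks. The control library is labelled littermate wildtype, and the study describes its controls as carrying the floxed Pgam1 alleles without Cre. The Adipo-Pgam1 KO library (KO) came from mice with floxed Pgam1 and Cre under the Adipoq promoter, which is active in adipocytes. There was 1 library per genotype, and the number of mice behind each is not given in the sources used here. Cells of 1 library are not replicates, so no p-value was computed, and a difference between the genotypes cannot be told apart from a difference between the libraries.

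Dcn (decorin, a matrix proteoglycan) and Pdgfra (a receptor for platelet-derived growth factor) mark fibroblasts, and Ptprc, Pecam1 and Msln mark blood, endothelial and mesothelial cells. Fibroblasts of adipose tissue include the precursors of adipocytes. Those with Pi16 (peptidase inhibitor 16) and Dpp4 (dipeptidyl peptidase 4, a surface protease) are known from other work as an early, multipotent pool that lies in the fascia-like sheath around the fat depot and beside larger vessels, while Icam1 and Pparg mark precursors that are closer to adipocytes.

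Members made up 28.0% of the control fibroblasts (221 of 790, exact 95% interval 24.9% to 31.2%) and 26.7% of the KO fibroblasts (47 of 176, 20.3% to 33.9%). These intervals, like all others below, are at 95% and cover counting error only. The shares of the libraries therefore differed by less than their counting error. Members had more UMIs than the other fibroblasts, with a median of 13278 against 11261 in the control and 17869 against 14448 in the KO library, and a cell with more UMIs passes a limit of 2 UMIs more easily. When each fibroblast was first thinned to 5000 UMIs, the shares were 20.8% (146 of 701) and 17.2% (26 of 151). That left out 13 control and 3 KO members, which had fewer UMIs than that. The median mitochondrial share of members was 3.75% (control) and 3.76% (KO). No barcode that passed the filter was shared by the libraries.

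**Figure D1:**
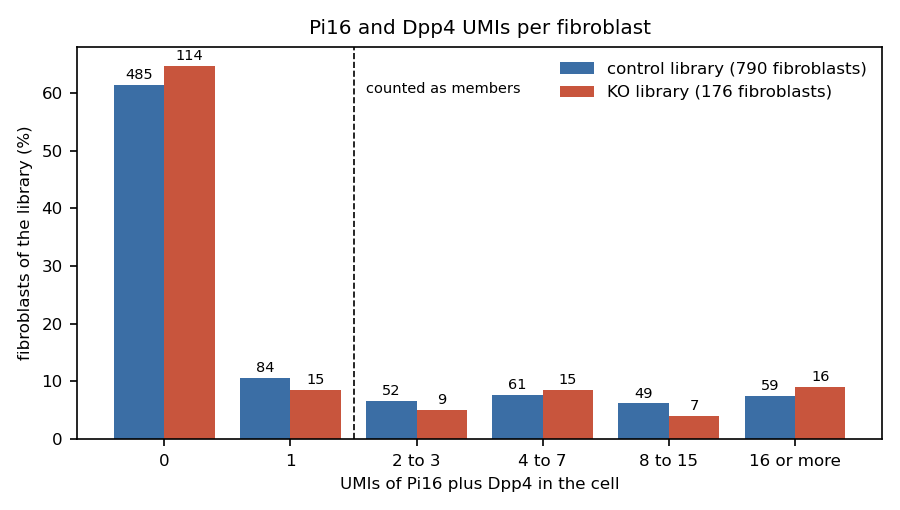
UMIs of Pi16 plus Dpp4 per fibroblast (x axis) against the share of each library's fibroblasts in percent (y axis), with the number of cells above each bar and the limit for members as a dashed line. Most fibroblasts had no UMI of either gene, 485 of 790 in the control and 114 of 176 in the KO library, and 59 and 16 cells had 16 or more.

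The count of Pi16 and Dpp4 in a cell had a long tail. In the control library 52 members had 2 to 3 UMIs, 61 had 4 to 7, 49 had 8 to 15 and 59 had 16 or more, and in the KO library the numbers were 9, 15, 7 and 16. Pi16 gave most of these counts. It reached 160 UMIs in 1 control member with a median of 5, against a highest count of 15 and a median of 1 for Dpp4. Both genes were found in 132 control members (59.7%), Pi16 alone in 74 and Dpp4 alone in 15. In the KO library both were found in 23 (48.9%), Pi16 alone in 24 and Dpp4 alone in none of 47 (exact 95% interval up to 7.55%).

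Some Pi16 and Dpp4 RNA was also present in cells that are not fibroblasts. At least 2 UMIs of the pair were found in 5.42% of control B cells (median of 4334 UMIs per cell) and in 11.4% of control macrophages (median of 8857.5). In the KO library the shares were 4.26% and 18.1%. Dpp4 is a gene of some immune cells as well. Cd248 and Pcolce2, a pair of markers that the rule did not use, were each found in at most 4.39% of macrophages in either library, against 91.5% to 100% of members. Other markers outside the rule were less rare in these cells. Most B cells carried Cd55 RNA, at shares of 71.7% (control library) and 68.1% (KO library), beside 86.4% and 89.4% for members. Macrophages with Cd55 made up 3.63% and 1.72%. For Fbn1 the macrophage shares were 12.0% and 5.17%, and the B cell shares 12.7% and 2.13%.

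The level of a gene is given below as UMIs per 1000000 UMIs summed over the cells of a group (CPM), and a ratio as the log2 of CPM in members over CPM in the other fibroblasts, computed separately in each library. Across the marker genes outside the rule, members stood above the other fibroblasts in both. Cd55, which protects cells from complement, was at 497 CPM in control members and 78.2 in the other control fibroblasts, and at 340 and 60.4 in the KO library, log2 ratios of 2.67 (2.52 to 2.82) and 2.50 (2.17 to 2.83). Cd248 (endosialin, a stromal surface protein) had ratios of 1.48 and 1.73. The ratios of Pcolce2, an enhancer of procollagen processing, were 1.83 and 1.94. Fbn1, the main protein of microfibrils, was at 2976 against 678 CPM in the control library and at 1652 against 619 in the KO library, ratios of 2.13 (2.08 to 2.19) and 1.42 (1.30 to 1.53). These 4 genes come from the marker list given with the population. That list was chosen with earlier results of these data known, so their levels describe the members and do not test the label.

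Near the limit the values were as follows. Control cells with 1 UMI of the pair (84 cells) had 111 CPM of Cd55 and 970 of Fbn1, those with exactly 2 UMIs (30 cells) had 201 and 1789, and those with 3 (22 cells) had 174 and 1632. In the KO library the 15 cells with 1 UMI had 125 CPM of Cd55, the 5 cells with exactly 2 had 87.2, and the 4 cells with 3 had 254.

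Within the members, other genes differed with the count of the pair. From cells with 2 to 3 UMIs of the pair to cells with 16 or more, Cd55 went from 190.5 to 847 CPM in the control library, and Fbn1 from 1729 to 4509 CPM. Col8a1 (a short-chain collagen) went from 58.8 to 577 CPM over the same steps. Fabp4, a fatty acid binding protein of cells that turn into adipocytes, was lower at the end of the range, with 338, 107, 255 and 132 CPM over the steps in order. Col15a1, a basement membrane collagen, went from 662 to 343 CPM, and Agt (angiotensinogen) from 73.0 to 2.11. The KO members showed the same order at the ends of the range for all 6 genes, with Cd55 going from 162 to 511 CPM and Fabp4 from 264 to 84.0. The median total went from 12666 to 15237 UMIs per cell over these steps in the control library.

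**Figure D2:**
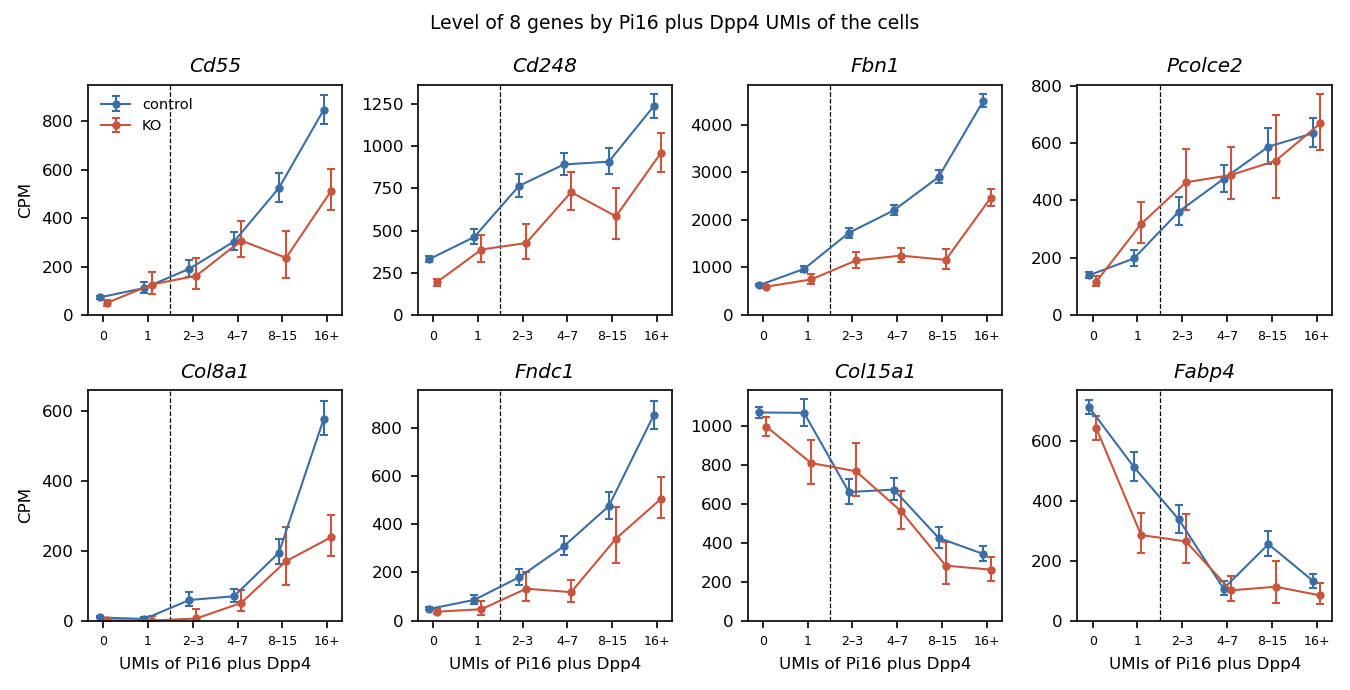
CPM of 8 genes (y axes) in fibroblasts grouped by their UMIs of Pi16 plus Dpp4 (x axes), for the control (blue) and KO (red) library, with exact 95% Poisson intervals and the limit for members as a dashed line. Cd55, Cd248, Fbn1, Pcolce2, Col8a1 and Fndc1 were higher in the cells with 16 or more UMIs than in those with 2 to 3, while Col15a1 and Fabp4 were lower.

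Across all genes, 9428 had enough UMIs to be compared (a minimum of 50 in the control library and of 20 in the KO library). A gene was counted as called when it differed at least 2-fold in the same direction in both libraries. Of these genes 132 (1.4%) were higher in members, Pi16 and Dpp4 among them, and 286 (3.03%) were lower. In the control library alone 191 (2.03%) were higher and 425 (4.51%) lower, and in the KO library alone 268 (2.84%) and 744 (7.89%). With TMM factors, which moved the median of all genes by 0.11 in the control library, the counts in both libraries were 149 and 242. The median ratio of all genes was -0.11 (control) and -0.08 (KO). The members were chosen on counts of these same cells, so the numbers of called genes describe the population and test nothing.

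**Figure D3:**
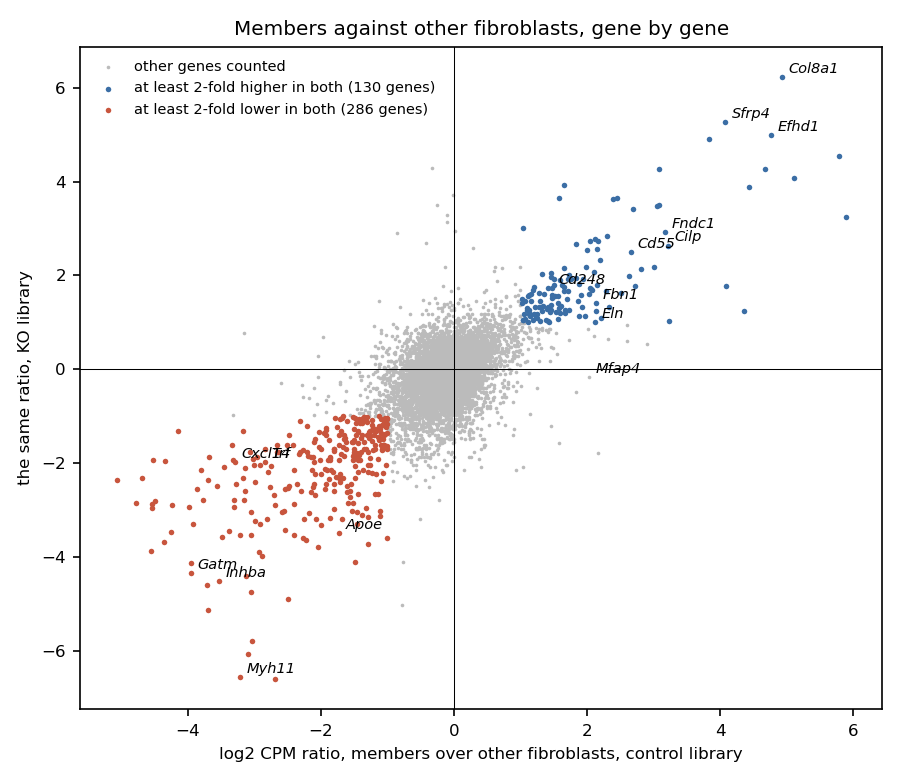
Each point is 1 gene, with its log2 CPM ratio of members over other fibroblasts in the control library (x axis) and in the KO library (y axis). The genes of the selection rule are left out, and the genes past 2-fold in both libraries are coloured, 130 of them higher and 286 lower in members. Col8a1, Sfrp4 and Efhd1 lie at the upper right and Myh11, Gatm and Inhba at the lower left, while Mfap4 was higher in members of the control library alone.

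The 15 genes with the largest ratios in members, taken by the smaller of the 2 libraries' values, were Col8a1, Efhd1, Tnfrsf11b, Islr2, Nov, Sfrp4, Ackr4, Limch1, Dact2, Sema3e, Epyc, Edn1, Fndc1, Uchl1 and Cilp. Col8a1, Tnfrsf11b, Sfrp4 and Cilp encode secreted proteins. Col8a1 had 757 UMIs in control members and 51 in the other control fibroblasts, and 99 and 1 in the KO library. Efhd1, a calcium-binding protein of mitochondria, had 292 and 22 UMIs in the control and 42 and 3 in the KO library, ratios of 4.77 (4.14 to 5.47) and 4.99 (3.34 to 7.32). Tnfrsf11b (osteoprotegerin, a decoy receptor) had 215 and 8 UMIs in the control library and 31 and 2 in the KO library.

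These leading genes did not mark every member. Among members, Col8a1 had a UMI in 33.5% of control cells and in 25.5% of KO cells, Efhd1 in 29.0% and 29.8%, and Tnfrsf11b in 26.7% and 29.8%. In the other fibroblasts the same genes were found in at most 3.69% of cells. Fndc1, a protein with fibronectin domains, had a UMI in many more cells, 84.2% of the control and 80.9% of the KO members, against 30.4% and 30.2% of the other fibroblasts. Cilp, a matrix protein first known from cartilage, had one in 60.6% and 63.8%, at 1004 and 776 CPM. Epyc (epiphycan, a small proteoglycan) had one in 8.14% and 23.4%.

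Among genes that are known for progenitors of this kind, 21 had enough UMIs, 16 were called higher in members and none was called lower. Beside the list counts here and below, 1.4% of all genes were called higher and 3.03% lower. All 21 had a ratio above 0 in both libraries, with median ratios of 1.83 (control) and 1.69 (KO), against medians near 0 for all genes. The lists were chosen with earlier results of these data known, so these counts describe the members and test nothing. Efhd1, Limch1, Dact2, Sema3e and Uchl1 of this list are also among the 15 highest genes above. Anxa3 (annexin A3) was at 494 against 111 CPM in the control and 264 against 39.9 in the KO library. Sema3c, a secreted guidance protein, was at 293 against 69.4 CPM and 186 against 57.6. Ly6c1, a surface antigen, had ratios of 2.16 (2.02 to 2.29) and 2.56 (2.31 to 2.80). The scavenging chemokine receptor Ackr3 had ratios of 1.83 and 2.66, and Creb5, a transcription factor, of 1.44 and 1.22. Procr, the protein C receptor, had 0.16 (-0.08 to 0.40) and 0.30 (-0.19 to 0.78), and both intervals include equal levels. Wnt2, often named beside Dpp4, was too rare to compare, with 18 UMIs in control members and 1 in KO members.

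Genes of precursors nearer to adipocytes lay on the other side. Of 15 such genes none was called higher and 7 were called lower, with median ratios of -0.84 and -1.19. Trf (transferrin, the iron carrier) was at 185 CPM in control members against 1314 in the other fibroblasts, and at 482 against 1902 in the KO library. Agt had ratios of -3.56 (-3.93 to -3.21) and -2.50 (-2.89 to -2.12). Fabp4 had -1.82 and -2.18, and Pparg, the nuclear receptor that drives adipocyte formation, had 15 UMIs in control members against 123, and 3 against 32 in the KO library. Cxcl14, a chemokine, had -3.29 and -1.99. Lpl, which releases fatty acids from lipoproteins, had -0.81 and -0.76, and Icam1, the usual surface marker of these cells, had 0.41 (0.06 to 0.75) and -0.01 (-0.67 to 0.61).

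Other genes of fat formation were mixed. Of 14 regulators, Klf2, a brake on Pparg, was called higher (1.18 and 1.68), Pparg and Gata2 were called lower, and Gata2 had -2.19 and -1.85. Ebf1, an early B cell factor that precursors use, was nearly level at 0.12 and 0.07. Of 7 genes of the Cd142 positive (F3 positive) regulatory fibroblasts, none was called higher, and Inmt alone was called lower (-1.67 and -1.0), while Mgp, an inhibitor of calcification, had 1.33 and 0.87. Among 11 markers of beige adipocytes, only Mtus1 had enough UMIs, and Ucp1, Cpt1b, Cidea and Tbx1 were at 0 in the members of both libraries. A count of 0 does not exclude a low level. The floor of 3 UMIs used in the ratios is 1.0 CPM in control and 3.77 CPM in KO members. Adipoq, which drives the Cre, and Lep were also at 0 in members.

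**Figure D4:**
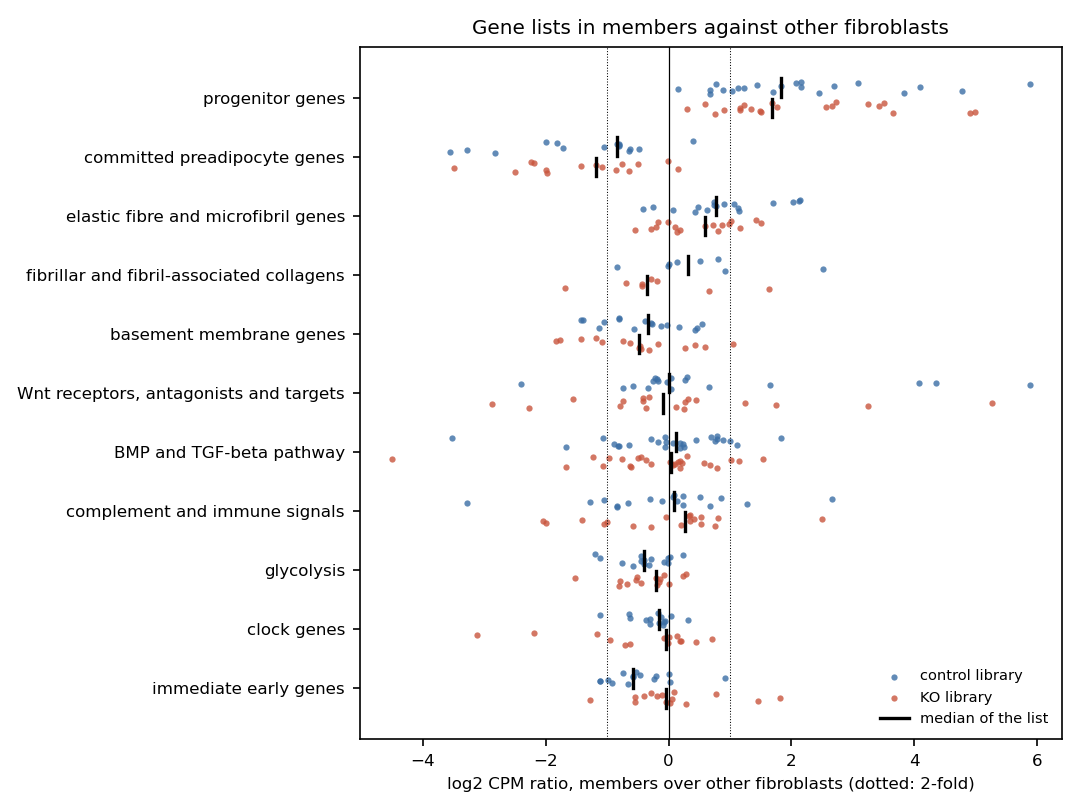
Log2 CPM ratio of members over other fibroblasts (x axis) for the genes of 11 lists (rows), 1 point per gene and library, with the median of each list as a black bar and 2-fold as dotted lines. All 21 points of the progenitor list lie above 0 in both libraries, and the genes of committed preadipocytes lie mostly below 0.

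The matrix genes separated by kind. Of 17 genes of elastic fibres and microfibrils, 4 were called higher and none lower, with median ratios of 0.78 and 0.59. Those 4 were Fbn1, Mfap5, Eln and Emilin2. Mfap5, a microfibril protein, was at 1670 against 516 CPM in the control and 1538 against 544 in the KO library. Eln (elastin) was at 1120 against 258 CPM in the control, and at 1167 against 579 in the KO library, ratios of 2.12 and 1.01. Of 16 basement membrane genes none was called higher and 3 were called lower, Col4a3, Col4a4 and Col15a1. Col4a4 had -1.43 (-1.62 to -1.24) and -1.84 (-2.30 to -1.41), and Col4a1, the abundant chain, had -0.80 and -1.19. Of 8 fibrillar and fibril-associated collagens, Col14a1, which binds the surface of collagen fibrils, was called higher at 2.52 and 1.63. Col1a1 had 0.81 (0.77 to 0.85) in the control and -0.28 (-0.36 to -0.21) in the KO library, opposite signs.

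Signalling genes differed within each pathway. Of 5 Wnt ligands with enough UMIs, Wnt4 and Wnt6 were called lower, and Wnt11 had 0.83 and 1.11. When cells with at least 3 of 6 contractile genes (described below) were left out, the control ratio of Wnt6 was 0.54. Of 18 receptors, antagonists and targets of Wnt, 4 were called higher, the secreted Sfrp2 and Sfrp4 and the intracellular Dact1 and Dact2, and Dkk2 was called lower. Sfrp4 had 115 UMIs in 50 control members and 51 in 12 KO members, of which 35 lay in 1 cell. Dact2 in the KO library had 21 UMIs in 4 members, 12 of them in 1 cell, against 5 UMIs in 5 other fibroblasts. Dact1 was more evenly held, with ratios of 1.65 (1.5 to 1.80) and 1.74 (1.43 to 2.06). Sfrp2 had 4.36 (control) and 1.25 (KO), but -0.22 in the KO library when the fibroblasts with a UMI of Ptprc, Pecam1 or Msln were added to the comparison.

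Of 26 genes of the BMP and TGF-beta pathway none was called higher and 2 were called lower. Tgfbr2, the type 2 TGF-beta receptor, had 1.0 and 1.14, and Fstl1, a secreted follistatin-like protein, 1.12 and 0.68. Of 14 semaphorin and axon guidance genes, Sema3c, Sema3d and Sema3e were called higher, and Nrp1, a semaphorin receptor, and its partner Plxnd1 were called lower. Nrp1 had -1.0 (-1.15 to -0.85) in the control and -1.18 (-1.44 to -0.92) in the KO library. Among 18 complement and immune signals Cd55 was the gene called higher, and Cxcl14 and Cd59a were called lower. Cxcl12, which holds blood cells in their niche, had -1.28 and -0.99. Of 10 stromal surface antigens, Ly6c1 and Cd9 were called higher, and Cd34 (0.84 and 1.02) and Ly6a, which encodes Sca-1 (0.92 and 1.07), came near the 2-fold limit.

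The genes lowest in members turned on which cells they were compared with. The 15 lowest were Cnn1, Gatm, Kcnd3, Tenm2, Stk26, Ednra, Inhba, Ptch1, Ajap1, Lmod1, Pde11a, Fndc5, Myh11, Etv1 and Ptn, and Cnn1, Lmod1 and Myh11 belong to the contractile apparatus of smooth muscle. At least 3 of the 6 contractile genes Myh11, Acta2, Tagln, Cnn1, Lmod1 and Actg2 were found in 81 of the 569 other control fibroblasts and 24 of the 129 other KO fibroblasts, but in 8 of 221 and 1 of 47 members. Without all of these cells the genes called lower fell from 286 to 137, of which 122 were in both sets, and those called higher went from 132 to 123, with 106 in both. That step was added after the data were seen. Stk26 and Inhba then had control ratios of 0.088 and 0.058, and KO ratios of -2.67 and -1.91, and Cnn1 was too rare for a ratio.

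The genes lowest in members without the contractile cells were Gatm, Fndc5, Pde11a, Vtn, E330013P04Rik, Lrrn1, Tusc5, Agt, Dkk2, Nmb, Lmod1, Cxcl14, Pappa, Rgcc and Kcnd3. Gatm, the first enzyme of creatine synthesis, had no UMI in any member of either library, against 52 in the other control and 112 in the other KO fibroblasts. With all cells kept it had 95 and 139 there, and the upper limits of the exact 95% intervals of the log2 ratio were -3.62 (control) and -4.03 (KO). Pde11a, which breaks down cyclic nucleotides, had 11 against 316 UMIs in the control library and 6 against 97 in the KO library. Vtn (vitronectin) had 48 against 745 and 7 against 328. Nmb (neuromedin B) had 160 against 1750 UMIs in the control library and 42 against 471 in the KO library.

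Markers of other cell types were rare in members, with some exceptions. Of 10 T, B and NK cell markers and 8 endothelial markers, none had enough UMIs to compare with the other fibroblasts, and their summed levels were 10.7 and 32.8 CPM in control members and 6.28 and 18.8 in KO members. The 10 macrophage markers summed to 166 CPM in control and 51.5 in KO members, led by Lyz2 and Cd74, whereas Lyz2 alone was at 7198 CPM in control macrophages. The 8 mesothelial markers summed to 69.3 and 26.4 CPM, nearly all from Nkain4. The 6 Schwann cell markers summed to 6.36 and 6.28 CPM, with Sox10 and Gfra3 at 0, and no member had 3 of them. The 6 epithelial markers summed to 1.67 CPM in control members and to 0 in KO members. The 8 pericyte and smooth muscle markers summed to 365 CPM in control members and 30.2 in KO members, against 1472 and 1697 in the other fibroblasts.

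The 4 haemoglobin genes summed to 3710 CPM in control members and 3787 in the other control fibroblasts, and to 8079 CPM in KO members and 919 in the other KO fibroblasts. In the KO library 5235 of the 6430 haemoglobin UMIs lay in 1 member, and without it the level was 1553 CPM. Its part in the ratios of other genes was not tested.

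The second comparison set KO members against control members, with the question of what the loss of Pgam1 in adipocytes goes along with in these cells. The targeted gene comes first. Pgam1, which turns 3-phosphoglycerate into 2-phosphoglycerate in glycolysis, lies on chromosome 19 at 41911923 to 41918660 of GRCm38 (plus strand). It had 329 UMIs in 171 of 221 control members and 70 UMIs in 32 of 47 KO members, 110 and 87.9 CPM, a log2 ratio of KO over control of -0.33 (-0.72 to 0.05). The interval includes equal levels. In the other fibroblasts the ratio was 0.11 (-0.11 to 0.34). Of 15 glycolysis genes none was called higher and 1 was called lower in members against the other fibroblasts. Of 11 with enough UMIs in members none differed 2-fold between the libraries in members, and Pgam2 had no UMI in a member of either library.

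A total of 7963 genes had at least 50 UMIs in members over both libraries. Of these 76 (0.954%) were higher by 2-fold or more in KO members, and 250 (3.14%) were lower by as much. The minimum is on the sum of both libraries, so a gene can pass it through the larger control library alone. The balance changed with the minimum. It was 183 higher and 515 lower at a minimum of 20 UMIs, and 656 and 492 at 1 UMI in each library. The counting interval lay beyond 0 for all 76 and for 217 of the 250. For the 76 this was fixed in advance. With the minimum of 50 UMIs and the totals given next, a gene 2-fold higher always has its interval above 0. With 221 cells against 47, the KO side rested on 795928 UMIs and the control side on 2985735. With TMM factors 99 genes were higher and 211 lower, and with median-of-ratios factors 103 and 208, so that the higher genes were 31.9% and 33.1% of those past 2-fold in place of 23.3%. Of the 76 genes 11, and of the 250 genes 5, had at least 50% of the UMIs of the higher library in 1 cell. Without the cell with most UMIs of each gene in each library, 51 of the 76 and 246 of the 250 were still past 2-fold. Of the 76 genes 20, and of the 250 genes 28, were past 2-fold in the same direction in the other fibroblasts too.

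The 10 highest genes in KO members were Saa3, Atf3, Ptx3, Ifit3, Gm12840, Lcn2, Isg15, Ifit1, Aldh1a2 and Cfb. In 6 of them 1 KO member held at least 50% of the UMIs of the KO members. All 55 UMIs of Saa3, an acute phase protein of adipose tissue, came from 1 KO member that also held 40 of the 49 UMIs of Ptx3 (pentraxin 3, a soluble pattern receptor), and no control member had any Saa3 (lower limit of the exact 95% interval of the log2 ratio, 5.76). A second KO member held 60 of 69 UMIs of Ifit3, 41 of 63 of Isg15 and 29 of 50 of Ifit1, a set of interferon-induced genes. Another KO member held 58 of the 69 UMIs of Lcn2 (lipocalin 2, an iron-scavenging acute phase protein). Without the cell with most UMIs of the gene in each library, the ratio of Ifit3 was 0.65 and that of Lcn2 0.81, while Ptx3 had 1.52, Isg15 1.70 and Ifit1 1.80. With members chosen after thinning, the ratio of Lcn2 was -0.66.

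In the 4 other genes no KO member held more than 40% of the UMIs. Atf3, a stress-induced transcription factor, had 21 UMIs in 15 of 221 control members and 70 UMIs in 22 of 47 KO members, a ratio of 3.64 (2.92 to 4.42), against 1.07 in the other fibroblasts. Its level was 149 CPM in control and 263 CPM in KO macrophages, and 23.6 and 149 CPM in B cells. Cfb (complement factor B) had 32 UMIs in 27 control members and 47 in 21 KO members, 2.46 (1.78 to 3.16), and 1.75 in the other fibroblasts. Gm12840, a gene model, had 45 UMIs in 32 control members and 114 in 25 KO members, 3.25 (2.74 to 3.78), and 1.55 (1.11 to 1.99) in the other fibroblasts. It was at 46.1 CPM in control and 104 CPM in KO macrophages, and at 10.3 and 67.5 CPM in B cells. Aldh1a2, which makes retinoic acid, had 23 UMIs in 7 control members and 35 in 6 KO members, 2.51 (1.71 to 3.34), and 0.19 in the other fibroblasts.

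**Figure D5:**
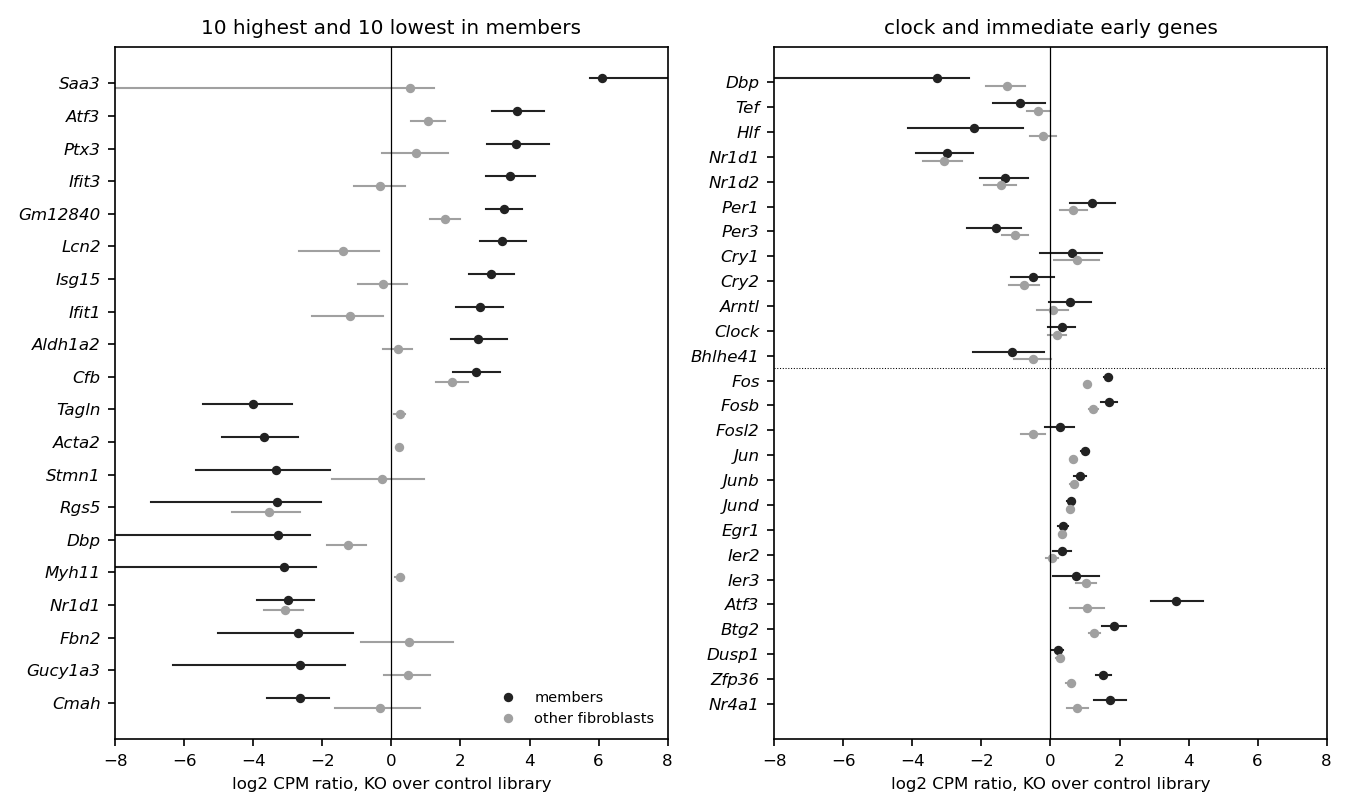
Log2 CPM ratio of the KO over the control library (x axes) in members (black) and other fibroblasts (grey), with exact 95% intervals for counting error, cut at the edge of the axis, and counts under 3 set to 3. The left panel has the 10 highest and 10 lowest genes in members, and the right panel the clock genes above and the immediate early genes below the dotted line. Nr1d1 was lower in both populations (-3.0 and -3.10), and Tagln and Acta2 had ratios of -4.02 and -3.70 in members and of 0.24 and 0.22 in the other fibroblasts.

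Immediate early genes, which cells switch on within minutes of a stimulus, were mostly higher in KO members. Of 14 with enough UMIs, 6 were at least 2-fold higher and none was 2-fold lower, beside 0.954% and 3.14% of all 7963 genes. The interval lay above 0 for 13 (as it did for 6.45% of all 7963 genes), with a median ratio of 0.92 beside -0.09 for all genes. Fos was at 460 CPM in control and 1457 CPM in KO members, a ratio of 1.66 (1.55 to 1.78). Fosb had 1.69, Btg2 1.84, Nr4a1 1.72 and Zfp36 1.53. The other fibroblasts moved the same way, with a median of 0.66 and 1.06 for Fos. Of 9 heat shock genes none was past 2-fold, with a median of 0.15.

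Of 17 complement and immune signals with enough UMIs, 3 were at least 2-fold higher and none 2-fold lower in KO members, beside 0.954% and 3.14% of all 7963 genes. Their median was 0.43, beside 0.56 in the other fibroblasts. C3, the central component, was at 3329 CPM in control and 6345 CPM in KO members, a ratio of 0.93 (0.88 to 0.98), and at 0.90 in the other fibroblasts. C4b had 1.25 (0.97 to 1.53) and C1ra 0.99 (0.83 to 1.15), with 1.37 and 0.90 in the other fibroblasts. Cd55 had -0.54 (-0.74 to -0.36). The chemokine Ccl7 had 1.73 (1.47 to 1.99), but 135 of its 238 UMIs in KO members came from 1 cell. Cebpb, a transcription factor of the acute phase, had 0.98 (0.72 to 1.24).

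Clock genes moved in both directions. The molecular clock is a loop in which Arntl and Clock switch on their own repressors and the output genes Dbp, Tef, Hlf and Nr1d1. Of 12 with enough UMIs in members, 6 were at least 2-fold lower and 1 was higher. Of all 7963 genes 3.14% were lower and 0.954% higher by as much. Nr1d1, which encodes the repressor REV-ERB-alpha, had 420 UMIs in 158 of 221 control members and 14 UMIs in 8 of 47 KO members, a ratio of -3.0 (-3.88 to -2.24). Dbp, a transcription factor that follows the clock, had 110 UMIs in 66 control members and 1 UMI in KO members, a ratio of -4.87 (-10.19 to -2.37). Hlf had -2.22, Per3 -1.59, Nr1d2 -1.31 and Bhlhe41 -1.13.

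The gene higher in KO members was Per1, at 1.21 (0.55 to 1.86), and Arntl had 0.58 (-0.05 to 1.17). No single cell carried these values, the highest count of Nr1d1 in 1 control member being 11. In the other fibroblasts Nr1d1 had -3.10, Dbp -1.27, Per3 -1.02, Hlf -0.21 and Per1 0.66. The time of day at which each library was collected is not given in the sources used here, and it cannot be told apart from the genotype.

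The stretches of 250 bases before the first listed RefSeq start (GRCm38.p6) are printed for 4 of these genes, since the clock acts on them through short motifs. RefSeq promoters were found for 14 of the 15 clock genes listed. Capitals mark the E-box CACGTG, which the Arntl and Clock proteins bind, and the D-box TTATGTAA (on either strand, or as TTACGTAA), which Dbp, Tef and Hlf bind. An E-box was found in 6.02% and a D-box in 0.932% of the 32851 stretches of this length in the table.
Nr1d1, chr11:98775378-98775627, minus strand: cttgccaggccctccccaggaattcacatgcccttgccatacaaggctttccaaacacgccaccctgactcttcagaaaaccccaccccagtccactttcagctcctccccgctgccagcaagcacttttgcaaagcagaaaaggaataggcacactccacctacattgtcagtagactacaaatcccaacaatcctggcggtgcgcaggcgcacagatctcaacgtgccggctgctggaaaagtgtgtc
Per3, chr4:151044666-151044915, minus strand: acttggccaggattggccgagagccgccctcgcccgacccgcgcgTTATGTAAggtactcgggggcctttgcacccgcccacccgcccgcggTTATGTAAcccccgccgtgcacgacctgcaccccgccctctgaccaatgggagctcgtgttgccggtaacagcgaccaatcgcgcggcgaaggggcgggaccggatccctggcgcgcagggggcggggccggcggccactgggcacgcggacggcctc
Bhlhe41, chr6:145865421-145865670, minus strand: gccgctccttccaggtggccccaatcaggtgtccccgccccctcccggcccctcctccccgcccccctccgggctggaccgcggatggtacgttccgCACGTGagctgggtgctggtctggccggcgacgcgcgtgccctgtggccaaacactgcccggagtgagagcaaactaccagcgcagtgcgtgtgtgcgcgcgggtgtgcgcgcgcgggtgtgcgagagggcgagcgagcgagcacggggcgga
Per1, chr11:69098699-69098948, plus strand: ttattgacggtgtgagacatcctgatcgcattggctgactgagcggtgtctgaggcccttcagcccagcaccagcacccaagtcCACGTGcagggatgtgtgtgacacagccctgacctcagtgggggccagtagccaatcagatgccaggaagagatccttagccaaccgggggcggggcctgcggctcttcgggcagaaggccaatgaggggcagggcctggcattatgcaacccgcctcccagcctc

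Per3 had a pair of D-boxes, 205 and 158 bases before its start, and Bhlhe41 and Per1 had 1 E-box each, 153 and 166 bases before it. RefSeq lists another start for Per1, whose window held neither motif. Per3 and Bhlhe41 were lower in KO members, and Per1 was higher. The window of Nr1d1 held neither motif in these spellings, which says only that these letters are not in it. Of the 14 clock genes with a promoter, 5 had an E-box and 1 had a D-box in the window. A match is a description and not a bound site.

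The 10 lowest genes in KO members were Tagln, Acta2, Stmn1, Rgs5, Dbp, Myh11, Nr1d1, Fbn2, Gucy1a3 and Cmah, and 3 of them are contractile genes. Acta2 (smooth muscle actin) had 390 UMIs in 45 of 221 control members, 212 of them in 1 cell, and 8 UMIs in 8 of 47 KO members, a ratio of -3.70 (-4.92 to -2.71). Tagln had 364 UMIs in the control, 149 of them in that same cell, and 6 in the KO library, -4.02 (-5.47 to -2.88). In the other fibroblasts the ratios were 0.22 and 0.24. The 45 control members with Acta2 were 20.4% of the 221, while 15.8% of control and 17.2% of KO macrophages, cells not known for it, had a UMI at median depths of 8857.5 and 14849.5 UMIs. These shares are at unlike depth, the median of control members being 13278 UMIs. Acta2 was at 131 CPM in control and 10.1 CPM in KO members, and at 74.4 and 52.5 CPM in macrophages. Tagln was at 60.8 CPM in control and 12.7 CPM in KO macrophages, and the part of free RNA in these ratios was not tested. The cell with most Acta2 also held 57 of the 97 UMIs of Myh11 and 15 of the 71 of Gucy1a3, and 8 control members had at least 3 of the 6 contractile genes, against 1 KO member. With members chosen after thinning, the ratio of Myh11 was 0.48.

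Stmn1, which takes microtubules apart, also rested on 1 control member. This cell held 104 of its 115 UMIs and had UMIs of all 13 cell cycle genes, with 63 of the 67 UMIs of Top2a, 35 of the 36 of Mki67 and 2 UMIs of Pi16. It was the only member of either library with UMIs of at least 4 of these genes. Without it the ratio of Stmn1 was 0.018. No KO member of 47 had 4 of these genes (exact 95% interval up to 7.55%). Rgs5, a pericyte gene, had 113 UMIs in the control, 53 in 1 cell, and 2 in the KO library, -3.91 (-6.98 to -2.03), and in the other fibroblasts it had -3.55. It was also at 122 CPM in control and 5.77 CPM in KO macrophages, and the part of free RNA in the ratio was not tested.

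Fbn2 and Cmah were spread over many cells and differed less in the other fibroblasts. Fbn2, the microfibril protein of growing tissue, had 74 UMIs in 33 control members and 3 in 3 KO members, -2.72 (-5.03 to -1.11), and 0.52 (-0.88 to 1.77) in the other fibroblasts. Cmah, which converts a sialic acid, had 281 UMIs in 90 control members and 12 UMIs in 9 KO members, -2.64 (-3.61 to -1.81). In the other fibroblasts it had 34 and 8 UMIs, -0.32 (-1.65 to 0.82). Cmah was at 62.8 CPM in control and 21.3 CPM in KO macrophages, and at 211 and 224 CPM in B cells.

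Several matrix genes were lower in KO members. Of 19 genes of elastic fibres and microfibrils, 3 were at least 2-fold lower and none was 2-fold higher in KO members. Of all 7963 genes 3.14% were lower and 0.954% higher by as much. The interval lay below 0 for 13 of the 19, as it did for 11.3% of all 7963 genes. Their median was -0.35, beside 0.01 in the other fibroblasts. Fbn1 was at -0.85 (-0.93 to -0.77) in members and -0.13 in the other fibroblasts. Mfap4, a microfibril-associated glycoprotein, was at 322 CPM in 97 of 221 control members and 107 CPM in 18 of 47 KO members, -1.59 (-1.93 to -1.27), and at 0.62 in the other fibroblasts. Eln was level in members at 0.06 (-0.05 to 0.16) and had 1.17 in the other fibroblasts. Loxl1, a cross-linking enzyme of elastin, had -0.66 (-0.80 to -0.51).

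Of 9 fibrillar and fibril-associated collagens the interval lay below 0 for 8 in members, beside 11.3% of all 7963 genes. These intervals are narrow because most of the genes have many UMIs. Of all 7963 genes 3.14% were at least 2-fold lower in KO members. Col12a1 alone was past 2-fold, at -1.53 (-2.52 to -0.68), and Col5a3 had -0.83 (-1.06 to -0.60). Col3a1 was at 5699 CPM in control and 4871 CPM in KO members, and at 5181 and 7890 CPM in the other fibroblasts, so the populations went opposite ways between the libraries. Col1a1 had -0.29 (-0.36 to -0.22) in members and 0.81 in the other fibroblasts.

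Several genes that mark the population were lower in KO members. These cells had more UMIs, with a median of 17869 against 13278 in control members. The limit of 2 UMIs could thus admit KO cells with a lower level of Pi16 and Dpp4. Pi16 had a ratio of -0.34 and Dpp4 of -0.82. The part of the limit in the ratios here, of the matrix genes above and of the preadipocyte genes below was not tested. Of 22 progenitor genes with enough UMIs, 1 (Cmah) was at least 2-fold lower and none higher, beside 3.14% and 0.954% of all 7963 genes. The interval lay below 0 for 11 (11.3% of all genes had it there) and above it for 1, Ly6c1 (0.45). The median was -0.31 in members and -0.33 in the other fibroblasts. Anxa3 had -0.90 (-1.12 to -0.70), Col8a1 -1.03 (-1.34 to -0.72, with 56 of its 99 KO UMIs in 1 cell), Ackr4 -1.49 (-2.13 to -0.91) and Fndc1 -0.75 (-0.96 to -0.55). Pcolce2 was level at 0.08 (-0.07 to 0.23). Sfrp4 and Epyc went the other way, at 0.73 and 1.55, Sfrp4 with 35 of its 51 UMIs in 1 cell. In cells with 16 or more UMIs of Pi16 and Dpp4, Fbn1 was at 2463 CPM in the KO and 4509 in the control library, but these cells were not alike in level, with Pi16 at 1305 and 1832 CPM and a median of 18556 and 15237 UMIs.

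Of 14 genes of committed preadipocytes, 2 were at least 2-fold higher in KO members, beside 0.954% of all 7963 genes. They were Agt at 1.78 (1.26 to 2.29) and Trf at 1.39 (1.19 to 1.58), and in the other fibroblasts they had 0.71 and 0.53. Cd36, a fatty acid transporter, was lower at -1.55 (-3.23 to -0.24), with 55 and 5 UMIs. Fabp4 had -0.57 and Lpl -0.09. Apoe, the apolipoprotein, had -0.51 (-0.83 to -0.19) in members and 1.26 in the other fibroblasts. The KO members with 2 to 3 UMIs of Pi16 and Dpp4 were at 264 CPM of Agt, and the like control members at 73.0.

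Of 23 genes of the BMP and TGF-beta pathway 3 were at least 2-fold lower in KO members and none was higher, beside 3.14% and 0.954% of all 7963 genes. The median of these genes was -0.10, beside -0.09 for all genes, and the interval lay below 0 for 7 and above it for 4. Bmp4, a ligand that commits precursors to the fat lineage, had 208 UMIs in 89 control members and 19 in 10 KO members, -1.55 (-2.31 to -0.87), and -0.37 in the other fibroblasts. Bmp7 had -1.77 (-3.44 to -0.47) and Tgfb2 -1.06 (-1.55 to -0.61), with 0.55 and 0.18 in the other fibroblasts. The receptor Tgfbr2 was level at 0.02. Single genes of other lists were also 2-fold lower in KO members. Thy1, 1 of 10 stromal surface antigens, had -1.21 (-1.76 to -0.70). Has2, which makes hyaluronan and is 1 of 5 genes of hyaluronan and its partners, had -1.42 (-2.30 to -0.66). Fzd7, 1 of 16 receptors, antagonists and targets of Wnt, had -1.37 (-2.54 to -0.37). No other gene of these lists was past 2-fold, and the list medians were -0.12, -0.29 and -0.22 in that order. Wnt ligands had no gene past 2-fold among the 3 that could be compared.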

How the data were processed

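Gene counts of 2 single-cell libraries (10x Genomics 3′ chemistry, version 3) were analysed. The deposited values are whole-number UMI counts per gene and barcode, without normalization, which per the submitters' processing notes and methods the authors made with Cell Ranger 3.0.1 on mm10 and analysed in Seurat 3.1.5 under R 4.0.1. Gene positions were taken from GENCODE vM21, which lists 28339 of the 28692 gene IDs in the files. Reads come from transcript 3′ ends, so levels are not per length, and genes that overlap or resemble each other cannot be told apart.

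Members and other fibroblasts were chosen on raw UMIs as given above. The rule asked for the other Dcn and Pdgfra positive cells as comparison, and those with Ptprc, Pecam1 or Msln were left out of it. No doublet caller was used, and removal of the highest Scrublet scores was an alternative. B cells and macrophages, used for background, had at least 2 UMIs of Cd79a and Cd79b, or of Adgre1 and Csf1r, and none of Pdgfra. UMIs were summed per library and population and divided by their total. Ratios had counts under 3 set to 3, none was given where both counts were at most 3, and a ratio resting on 1 or 2 UMIs was printed from the counts as they were. Intervals are exact (conditional binomial for ratios, Poisson for CPM, Clopper-Pearson for shares). Since there was 1 library per genotype, no test was possible. Named genes are the 15 highest and 15 lowest in members, the 10 highest and 10 lowest in KO members, Pgam1, and genes of 30 lists. The members and lists were chosen with earlier results of these data known. Python 3.11.15, scanpy 1.11.5, scipy 1.17.1 and edgeR 4.0.16 (TMM factors, as an alternative scaling of the counts) were used, and the code was tested on simulated data.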

Additional observations from a re-analysis of the deposited data

Results flagged for a closer look

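Among the 20 genes named for the KO comparison, 5 had ratios of opposite sign in members and in the other fibroblasts with both counting intervals beyond 0, and in 4 more (Ifit3, Isg15, Fbn2 and Gucy1a3) the signs were opposite but the interval in the other fibroblasts included 0. Saa3 was not among them, but its positive ratio in the other fibroblasts came from counts under 3 being set to 3. It had 7 UMIs in the other control and 0 in the other KO fibroblasts. The difference between the populations was not tested, since each value comes from 1 library per genotype. Lcn2 had a log2 ratio of KO over control of 3.21 in members and -1.41 in the other fibroblasts, and Ifit1 had 2.55 and -1.20. Tagln had -4.02 in members and 0.24 in the other fibroblasts, Acta2 -3.70 and 0.22, and Myh11 -3.11 (with its 1 UMI set to 3) and 0.25. In each of these genes 1 member held at least 40.9% of the UMIs of the higher library.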

How the results depend on the processing

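Over 18 settings, 15 planned and 3 chosen after seeing the data, the share of fibroblasts counted as members in the control library was 31.9% with a limit of 1000 genes and 5% mitochondrial UMIs, 38.6% with 1 or more UMIs of Pi16 and Dpp4 (35.2% in the KO library), 21.4% with 4 or more, 21.7% of all Dcn and Pdgfra cells, and 20.8% (146 cells) after thinning to 5000 UMIs, against 17.2% (26 cells) in the KO library. Genes lower in members were 138 with the stricter cell filter and 137 without the contractile cells, and those higher were 214 with a minimum of 1 UMI. In KO members the genes higher and lower were 183 and 515 at a minimum of 20 UMIs, 656 and 492 at 1 UMI, and 460 lower without the top cell of each gene. The counts at low minimums hold many genes of few UMIs, by construction.

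Signs changed for few values. Stmn1 (KO over control) had 0.17 with 4 or more UMIs of Pi16 and Dpp4, 0.028 without high doublet scores, 0.48 after thinning, 0.047 without its top cell, 0.12 without contractile cells and 0.018 without the cycling cell. The median of cell cycle genes had 0.54, 0.24, 0.52, 0.19, 0.17 and 0.20 in that order, and 0.17 with a minimum of 1 UMI and with detection in 10% of members. The erythroid median was -0.89 without high doublet scores and -0.72 without top cells, Lcn2 -0.66 and Myh11 0.48 after thinning, Notch3 (KO over control) 0.056 and Cnn1 (members over others, KO library) 0.53 with the stricter filter, and the endothelial median 0.74 at 1 UMI. Without contractile cells the control ratios of Wnt6, Stk26 and Inhba were 0.54, 0.088 and 0.058. With the wider comparison the KO ratio of Sfrp2 was -0.22. For the other reversals the cause was not tested. TMM factors moved the median of all genes by 0.11 and median-of-ratios factors by 0.11 (log2, members over others, control).

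No paired analysis was possible because there was 1 library per genotype, and for the same reason leaving 1 out was not run. Depth limits the KO side, where 3 UMIs in members are 3.77 CPM.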
